A study of Mus musculus with 8 samples.

Results

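The genes described here are 38 genes of activated microglia and infiltrating macrophages, given as a list of symbols. A symbol counted as found where the array's annotation gave at least 1 probe set that carries this symbol alone, and 37 of the 38 were found among 22180 genes. Spp1 was not found in this way and is not analysed here.

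RNA of total brain was measured on 8 Affymetrix whole-transcript arrays in 4 groups of 2. All mice had been immunized with MOG, a protein of the myelin sheath, which induces an autoimmune disease of the central nervous system, and all were taken on day 14, at the disease maximum given by the labels. Wild-type mice had a black coat, and C57BL/6Je/e mice (e/e below) a yellow one. Mice homozygous for the e allele lack a working Mc1r, the receptor through which melanocortin peptides act on pigment cells. Mice of each genotype received either PBS or NDP-MSH, a stabilised synthetic form of alpha-MSH, of which 5 µg was injected into a vein of each mouse on days 8, 10 and 12. Each group is called by its genotype and what was injected. No group was left unimmunized, so the level of these genes in a brain without the disease is not known here. No label says that the arrays of a group came from separate animals, or whether an array holds RNA of 1 animal or a pool. The p-values here therefore reflect a spread between samples that may in part be technical. The e/e PBS arrays differed in Y-linked signal and the wild-type NDP-MSH arrays in pituitary signal (values below), so neither pair repeats 1 RNA.

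Microglia are the resident macrophages of the brain. In autoimmune inflammation they enlarge and take up debris, and monocytes enter from the blood and become macrophages beside them. Both cell types then carry receptors for antibody and lipid, the lysosomal proteins that digest what is taken up, and an oxidase that makes reactive oxygen. TREM2 on the cell surface, with its adaptor TYROBP, is needed for the state called disease-associated microglia, in which genes of lipid handling and phagocytosis are raised while genes of resting microglia fall. In RNA of a whole brain, fewer cells of a type and less RNA per cell cannot be told apart.

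The promoters of these genes are shown first, searched for 4 short motifs that transcription factors of myeloid cells are known to bind. No motif was found in most of the members for which a promoter sequence was given. RefSeq windows of GRCm38.p6, from 250 bases before to 50 bases after each transcription start, were given for 27 of the 37 genes, in 33 windows. Each of the 4 motifs was searched on both strands, and composite, PU.1 and interferon matches may overlap. GGAANNGAA, the composite at which an ETS factor such as PU.1 sits beside an interferon regulatory factor, was in 7 of the 33 windows (21.2%), against 8.24% of all 32851 windows. These windows belong to Cd68, Clec7a, Ctss, Cybb, Fcgr2b and Gpnmb, and Clec7a has 2 that overlap. GAAANNGAA, the core of the interferon-stimulated response element, was in 6 (18.2%, against 8.56%), those of Aif1, Apoe, Ctss, Cybb and both of Ms4a7. GAGGAAGT, a PU.1 core, was in 2 (6.06%, against 3.2%), those of Cd53 and Ctss. TTCNNNGAA, the gamma-activated site of STAT factors, was in 1 (3.03%, against 8.3%), that of Fcgr1. A match is a description of letters and not evidence of binding.

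The windows of 4 genes are printed, chosen because they hold matches and belong to genes whose array values are given below. They read 5′ to 3′ along the gene, with the matches in capitals. Ctss, on the plus strand at chr3:95526536-95526835, holds an interferon element that begins 21 bases before the start and a composite that runs into the PU.1 core at the start. Cybb, on the minus strand at chrX:9469275-9469574, holds 3 interferon elements and 1 composite. Clec7a, on the minus strand at chr6:129472730-129473029, holds 1 composite. Fcgr1, on the minus strand at chr3:96293920-96294219, holds 1 gamma-activated site.
Ctss: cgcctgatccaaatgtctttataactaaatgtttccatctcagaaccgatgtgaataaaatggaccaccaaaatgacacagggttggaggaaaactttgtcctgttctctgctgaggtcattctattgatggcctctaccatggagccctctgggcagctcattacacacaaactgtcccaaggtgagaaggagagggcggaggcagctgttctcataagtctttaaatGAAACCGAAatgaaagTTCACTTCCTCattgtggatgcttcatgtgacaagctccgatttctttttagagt
Cybb: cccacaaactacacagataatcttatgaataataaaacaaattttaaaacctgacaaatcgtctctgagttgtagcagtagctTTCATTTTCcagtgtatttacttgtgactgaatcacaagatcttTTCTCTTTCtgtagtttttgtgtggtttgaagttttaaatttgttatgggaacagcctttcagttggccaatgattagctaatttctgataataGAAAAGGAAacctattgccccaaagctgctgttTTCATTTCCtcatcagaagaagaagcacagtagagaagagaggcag
Clec7a: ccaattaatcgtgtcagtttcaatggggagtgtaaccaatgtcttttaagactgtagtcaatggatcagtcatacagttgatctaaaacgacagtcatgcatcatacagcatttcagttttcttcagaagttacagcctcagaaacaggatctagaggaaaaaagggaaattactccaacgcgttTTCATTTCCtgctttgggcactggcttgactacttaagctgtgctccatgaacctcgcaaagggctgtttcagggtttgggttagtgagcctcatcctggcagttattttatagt
Fcgr1: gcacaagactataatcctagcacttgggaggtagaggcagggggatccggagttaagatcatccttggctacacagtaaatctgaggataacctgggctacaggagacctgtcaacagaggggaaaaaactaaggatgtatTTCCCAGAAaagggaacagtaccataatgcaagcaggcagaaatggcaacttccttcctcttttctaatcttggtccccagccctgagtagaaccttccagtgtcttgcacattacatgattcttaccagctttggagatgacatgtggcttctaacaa

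Array values are the authors' processed values, taken as log2 because the base is not stated. Each gene is centred on its median over the 8 arrays, so 0 is that gene's own middle and levels of different genes cannot be compared. The members varied far more than most genes. The range from the lowest to the highest array had a median of 1.62 over the members and 0.33 over all genes, and it was above 1 in 32 of 37 members, against 3.23% of all genes. Cybb had the largest range (4.27) and Apoe the smallest (0.23). The stored signal before centring was 8 or above on every array for 6 members (Axl, Csf1r, Ctss, Fcer1g, Mpeg1 and Nckap1l), and between 4 and 8 on at least 1 array for the other 31.

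The arrays fell into the same order for most members. Median values over the 37 genes for arrays 1 and 2 were 0.12 and 0.55 (wild-type PBS), 0.46 and 0.01 (wild-type NDP-MSH), -0.70 and 0.13 (e/e PBS) and -0.83 and -0.96 (e/e NDP-MSH). The e/e NDP-MSH arrays were low together, the wild-type arrays were high, and the e/e PBS pair was split. e/e PBS 1 lay below e/e PBS 2 in 34 of 37 members (45.1% of all genes) and nearer to the e/e NDP-MSH mean than to e/e PBS 2 in 33 (63.6%). It lay below all 4 wild-type arrays in 35 members (18.5%), and e/e PBS 2 did so in 11 (24.5%). The gap between the e/e PBS arrays had a median of 0.93 over the members, larger than the gap of 0.48 between the wild-type PBS arrays, of which array 1 was the lower in 35 members (49.5%), and the gap of 0.39 between the wild-type NDP-MSH arrays, of which array 2 was the lower in 35 (45.5%).

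**Figure D1:**
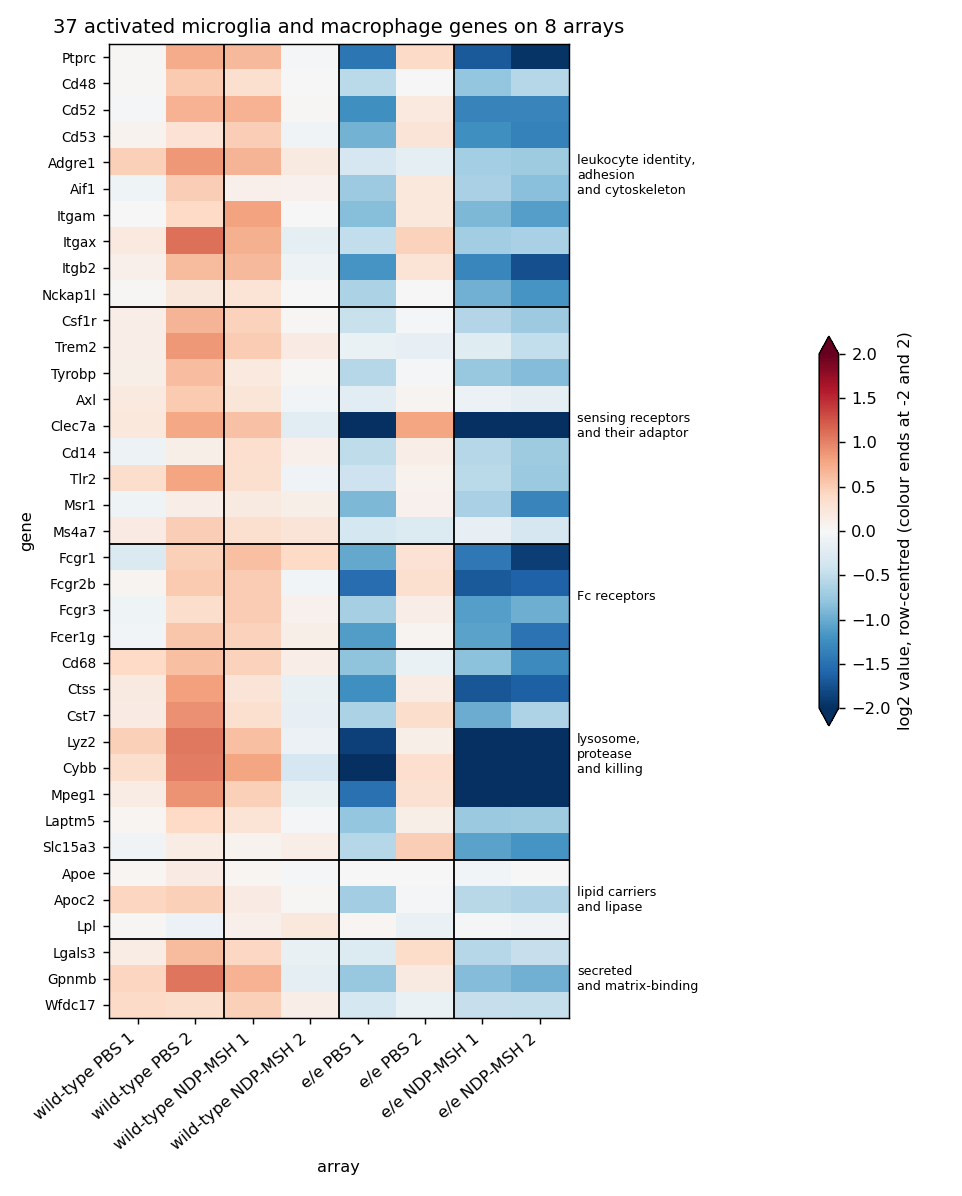
Row-centred log2 values of the 37 members (rows, in 6 role groups) on the 8 arrays (columns), with colours that end at -2 and 2. The e/e NDP-MSH columns and e/e PBS 1 are blue for nearly every gene (member medians -0.83, -0.96 and -0.70), while e/e PBS 2 (0.13) resembles the wild-type columns in colour.

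Other differences between the arrays are known and fall unevenly on the groups. Eif2s3y, a Y-linked gene, reached at most 0.02 in e/e PBS 1 and on the wild-type arrays, but 2.04 in e/e PBS 2 and 2.78 and 2.87 in both arrays of e/e NDP-MSH. Xist, transcribed from the inactive X of females, was lowest in e/e NDP-MSH, with -4.46 and -4.56, and between -0.82 and 0.67 on the other 6 arrays. So 3 of 4 e/e arrays and no wild-type array carried Y-linked signal. The median of 11 cerebellar genes was low in wild-type NDP-MSH, -1.91 and -1.69, and between -0.09 and 0.35 elsewhere, and 8 of the 11 fell in the wild-type comparison (limma, adjusted p under the threshold). The median of 7 anterior pituitary genes was 2.31 in wild-type NDP-MSH 1 and between -0.08 and 0.06 elsewhere. The part of these differences in the member results was not tested.

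NDP-MSH against PBS in e/e mice, which asks what the peptide does without Mc1r, went with lower values of nearly all these genes, but none of the differences passed the test. Xist was far lower on both e/e NDP-MSH arrays than on either e/e PBS array, so treatment and sex-linked signal cannot be told apart here. The member median was -0.62, and 36 of 37 genes were lower after NDP-MSH, Ms4a7 being the exception. The median over all genes was 0.01. In the limma fit 0 of 37 members were called, with 0 of 22180 genes called in all (0%); at an unadjusted p under 0.05, 394 genes were lower and 395 higher. At that unadjusted threshold 13 members were lower (1.78% of all genes were) and none was higher. Both e/e NDP-MSH arrays lay below both e/e PBS arrays in 28 members (14.3%) and above both in 0 (16%).

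These counts depend on the e/e PBS array that is used. With e/e PBS 1 left out, the member median was -1.06, 30 members were lower at an unadjusted p under 0.05 (4.1% of all genes), and 51 genes passed the threshold, among them Clec7a (-3.25, adjusted p = 0.0348) and Slc15a3 (-1.61, adjusted p = 0.0261). With e/e PBS 2 left out, the median was -0.22, 2 members (Nckap1l and Slc15a3) were lower at an unadjusted p under 0.05 (1.46%), and 4 genes passed, none of them a member. The remaining e/e PBS array stood above both e/e NDP-MSH arrays in 35 members without e/e PBS 1 (30.9%) and in 29 without e/e PBS 2 (31.9%). In these fits the lone array is assumed to vary like the other groups.

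**Figure D2:**
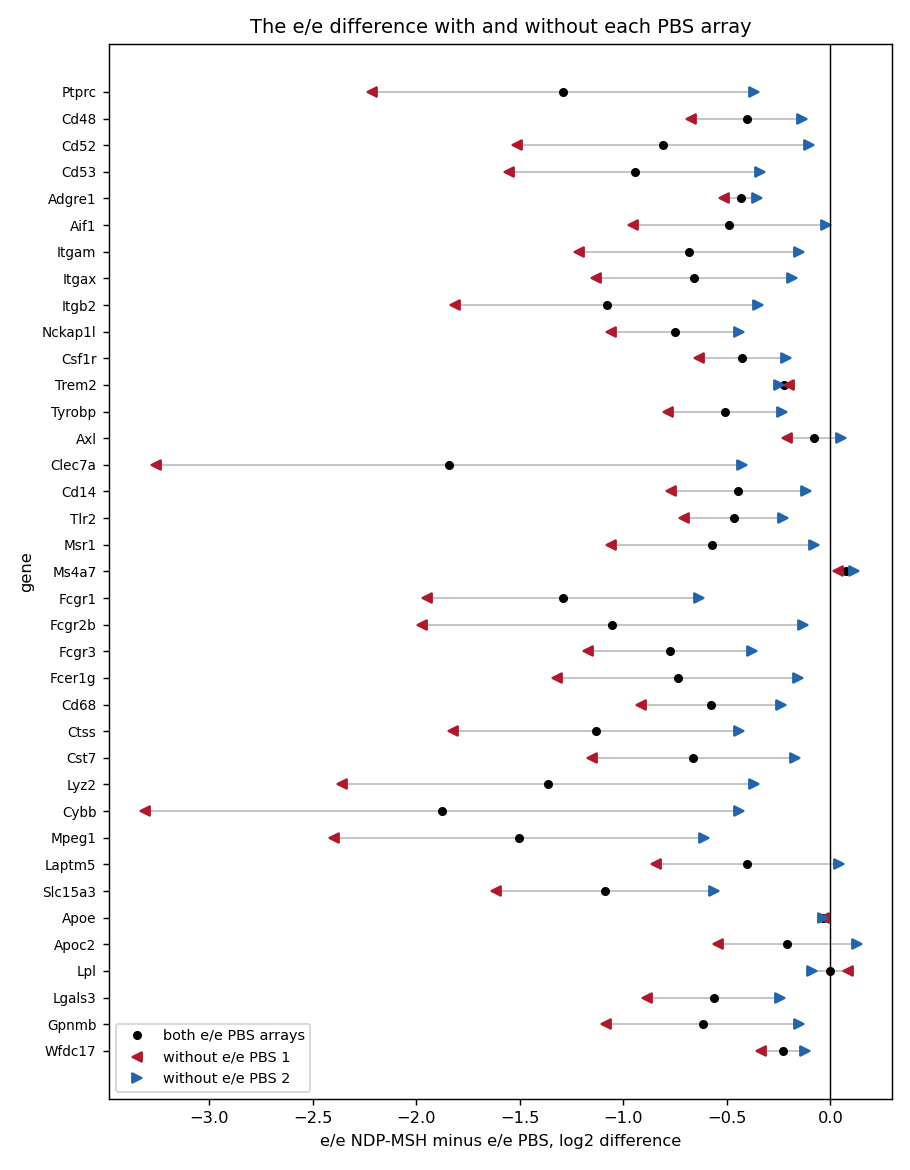
The e/e difference, NDP-MSH minus PBS, on the log2 scale (x axis) for each member (y axis), with both PBS arrays (circle), without e/e PBS 1 (red, left-pointing triangle) and without e/e PBS 2 (blue, right-pointing triangle). Without e/e PBS 1 the median is -1.06, and without e/e PBS 2 it is -0.22; Clec7a spans -3.25 to -0.43.

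The 10 genes of leukocyte identity, adhesion and cytoskeleton had a median e/e difference of -0.72, and all 10 were lower. Nckap1l, a subunit of the WAVE complex that drives actin assembly in blood cells, had one of the smallest p-values. It lay at 0.02 and 0.22 (wild-type PBS), 0.27 and 0.01 (wild-type NDP-MSH), -0.63 and -0.01 (e/e PBS) and -0.96 and -1.18 (e/e NDP-MSH), here and below in the order array 1 and array 2. Both e/e NDP-MSH arrays were the lowest of the 8, and the 4 wild-type arrays lay close together. The e/e difference was -0.75 ± 0.20 (SE, limma, unadjusted p = 0.00662, adjusted p = 1), and it was -0.44 with e/e PBS 2 left out and -1.06 with e/e PBS 1 left out. Cd53, a tetraspanin of leukocytes, lay at 0.07 and 0.28 (wild-type PBS), 0.49 and -0.07 (wild-type NDP-MSH), -0.95 and 0.26 (e/e PBS) and -1.23 and -1.34 (e/e NDP-MSH), an e/e difference of -0.94 ± 0.36. e/e PBS 2 stood at wild-type values, while e/e PBS 1 was nearer to e/e NDP-MSH.

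Itgax (CD11c), the integrin subunit of dendritic cells that activated microglia also carry, lay at 0.19 and 1.10 (wild-type PBS), 0.71 and -0.19 (wild-type NDP-MSH), -0.48 and 0.46 (e/e PBS) and -0.70 and -0.65 (e/e NDP-MSH). Both wild-type groups overlapped, and the e/e difference was -0.66 ± 0.42. Adgre1, the classic surface marker of mouse macrophages, lay at 0.47 and 0.86 (wild-type PBS), 0.69 and 0.18 (wild-type NDP-MSH), -0.34 and -0.18 (e/e PBS) and -0.68 and -0.70 (e/e NDP-MSH). Both e/e PBS arrays were below every wild-type array, as in Nckap1l, where e/e PBS 2 was only just below. Both e/e groups were tight, with an e/e difference of -0.43 ± 0.18. Of the remaining 6, Ptprc (CD45), Itgb2, Cd52, Itgam, Aif1 (IBA1) and Cd48, the e/e differences ran from -1.29 ± 0.55 for Ptprc to -0.40 ± 0.22 for Cd48.

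The 9 sensing receptors and their adaptor had a median e/e difference of -0.45, with 8 of 9 lower. Clec7a (dectin-1), a receptor for fungal glucans and a marker of disease-associated microglia, had the most divided e/e PBS pair of this group. It lay at 0.21 and 0.78 (wild-type PBS), 0.59 and -0.21 (wild-type NDP-MSH), -2.04 and 0.79 (e/e PBS) and -2.22 and -2.71 (e/e NDP-MSH). The value of e/e PBS 2 was the highest of all 8 arrays, while e/e PBS 1 lay close to the e/e NDP-MSH arrays. The e/e difference was -1.84 ± 0.79.

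Trem2, the lipid-sensing receptor, lay at 0.13 and 0.86 (wild-type PBS), 0.51 and 0.17 (wild-type NDP-MSH), -0.13 and -0.17 (e/e PBS) and -0.25 and -0.50 (e/e NDP-MSH). The e/e groups did not overlap, but the e/e difference was only -0.22 ± 0.23, 95% interval -0.76 to 0.31, and both e/e PBS arrays lay below the wild-type arrays. Tyrobp, its adaptor with an activating motif, lay at 0.12 and 0.61 (wild-type PBS), 0.20 and 0.02 (wild-type NDP-MSH), -0.58 and -0.02 (e/e PBS) and -0.76 and -0.86 (e/e NDP-MSH), an e/e difference of -0.51 ± 0.21. The highest e/e array of Tyrobp, e/e PBS 2, was just below the lowest wild-type array.

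Tlr2, the toll-like receptor for bacterial lipoproteins, lay at 0.36 and 0.78 (wild-type PBS), 0.32 and -0.07 (wild-type NDP-MSH), -0.41 and 0.07 (e/e PBS) and -0.54 and -0.74 (e/e NDP-MSH). In both genotypes the NDP-MSH arrays lay below the PBS arrays, by -0.44 ± 0.21 in wild-type and by -0.47 ± 0.21 in e/e mice. The e/e differences of Cd14, the co-receptor for lipopolysaccharide, Csf1r, the receptor on which microglia depend for survival, and Msr1, a scavenger receptor, ran from -0.57 ± 0.32 (Msr1) to -0.42 ± 0.22 (Csf1r). Axl, a receptor tyrosine kinase for dying cells, was at -0.08 ± 0.15. Ms4a7, a gene of macrophages from outside the brain, was the 1 member that was not lower, with 0.07 ± 0.12, and its arrays are given for that reason. It read -0.36 and -0.28 (e/e PBS) and -0.16 and -0.33 (e/e NDP-MSH), all below the wild-type arrays (0.16 and 0.49 under PBS, 0.32 and 0.26 under NDP-MSH).

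The 4 Fc receptors had a median e/e difference of -0.91, and all 4 were lower. Fcgr1, the high-affinity receptor for IgG, lay at -0.29 and 0.48 (wild-type PBS), 0.60 and 0.40 (wild-type NDP-MSH), -1.02 and 0.29 (e/e PBS) and -1.43 and -1.88 (e/e NDP-MSH). The 2 e/e PBS arrays were 1.31 apart, more than the step from e/e PBS 1 to either e/e NDP-MSH array. The e/e difference was -1.29 ± 0.42 (limma, unadjusted p = 0.0165, adjusted p = 1). Fcgr3, an activating IgG receptor of low affinity, lay at -0.08 and 0.35 (wild-type PBS), 0.52 and 0.08 (wild-type NDP-MSH), -0.66 and 0.13 (e/e PBS) and -1.10 and -0.98 (e/e NDP-MSH), an e/e difference of -0.77 ± 0.27. Fcgr2b, the inhibitory receptor, was at -1.05 ± 0.52 and Fcer1g, the signalling chain of the activating receptors, at -0.74 ± 0.37. Fcgr2b and Fcgr3 are close relatives in sequence, and whether their probes share targets was not tested.

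The 8 genes of lysosome, protease and killing had the widest median e/e difference of the 6 role groups, -1.11, and all 8 were lower. Slc15a3, a lysosomal transporter of histidine and peptides, had the smallest p of all members. It lay at -0.08 and 0.15 (wild-type PBS), 0.08 and 0.13 (wild-type NDP-MSH), -0.56 and 0.49 (e/e PBS) and -1.08 and -1.18 (e/e NDP-MSH). Its 4 wild-type arrays lay close together, the e/e PBS arrays fell on either side of them, and the e/e NDP-MSH arrays were the lowest. The e/e difference was -1.09 ± 0.29 (limma, unadjusted p = 0.00615, adjusted p = 1). Without e/e PBS 2 it was -0.56. Mpeg1 (perforin-2), a pore-forming protein of macrophages, lay at 0.15 and 0.89 (wild-type PBS), 0.48 and -0.15 (wild-type NDP-MSH), -1.49 and 0.30 (e/e PBS) and -2.13 and -2.06 (e/e NDP-MSH), an e/e difference of -1.50 ± 0.53.

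Cst7 (cystatin F), an inhibitor of lysosomal cathepsins and a marker of disease-associated microglia, lay at 0.17 and 0.91 (wild-type PBS), 0.32 and -0.17 (wild-type NDP-MSH), -0.63 and 0.35 (e/e PBS) and -0.99 and -0.61 (e/e NDP-MSH). Its e/e groups overlapped, since e/e PBS 1 lay just below e/e NDP-MSH 2, and the e/e difference was -0.66 ± 0.36. Cybb, Lyz2 and Ctss are given array by array because their values were seen to spread widely. Cybb, the catalytic subunit of the phagocyte NADPH oxidase, lay at 0.35 and 1.02 (wild-type PBS), 0.79 and -0.34 (wild-type NDP-MSH), -2.53 and 0.34 (e/e PBS) and -2.70 and -3.24 (e/e NDP-MSH). The difference between the e/e PBS arrays, 2.87, exceeded the e/e treatment difference of -1.88 ± 0.83 in size. Lyz2, the lysozyme of macrophages, lay at 0.47 and 1.06, 0.60 and -0.12, -1.87 and 0.12, and -2.09 and -2.38 in the same order of groups, a difference of -1.36 ± 0.58; whether its probes share targets with the related Lyz1 was not tested. Ctss, the cathepsin that trims antigen for MHC class II, lay at 0.19 and 0.82, 0.25 and -0.15, -1.23 and 0.15, and -1.72 and -1.64, a difference of -1.13 ± 0.41. Cd68, the glycoprotein of macrophage lysosomes, and Laptm5, a lysosomal membrane protein of blood cells, were at -0.58 ± 0.24 and -0.40 ± 0.27.

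**Figure D3:**
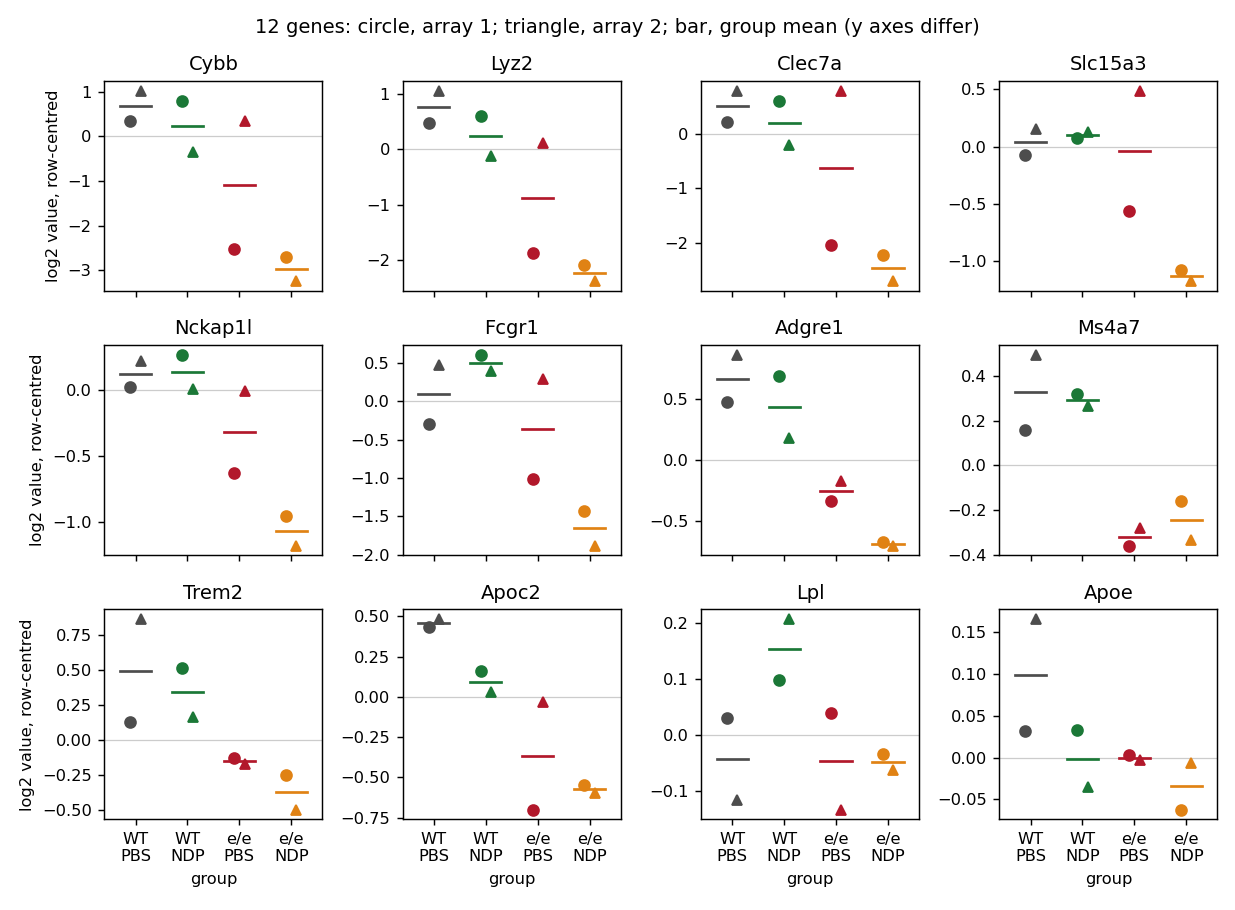
Row-centred log2 values (y axes, which differ between panels) of 12 members in the 4 groups (x axis), with array 1 as a circle, array 2 as a triangle and the group mean as a bar; the genes were picked after their values were seen. In Cybb, Lyz2, Clec7a and Fcgr1 the e/e PBS triangle lies with the wild-type arrays and the circle near e/e NDP-MSH. In Nckap1l, Adgre1, Ms4a7, Trem2 and Apoc2 both e/e PBS arrays lie below every wild-type array. In Nckap1l and Apoc2 the e/e PBS triangle (-0.0068 and -0.03) lies only just below the lowest wild-type array (0.0068 and 0.03), far from the circle.

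The 3 genes of lipid carriers and lipase had a median e/e difference of -0.03, and all 3 were lower. Apoe, the lipid carrier that disease-associated microglia share with astrocytes, lay at 0.03 and 0.17 (wild-type PBS), 0.03 and -0.04 (wild-type NDP-MSH), 0.0025 and -0.0025 (e/e PBS) and -0.06 and -0.01 (e/e NDP-MSH). Its e/e difference was -0.03 ± 0.08, 95% interval -0.21 to 0.15, the narrowest of all members. Apoc2, the cofactor that activates lipoprotein lipase, lay at 0.43 and 0.48 (wild-type PBS), 0.16 and 0.03 (wild-type NDP-MSH), -0.70 and -0.03 (e/e PBS) and -0.55 and -0.60 (e/e NDP-MSH), an e/e difference of -0.21 ± 0.19. e/e PBS 1 was the lowest array of Apoc2, below both e/e NDP-MSH arrays. Lpl, the lipase itself, lay at 0.03 and -0.12 (wild-type PBS), 0.10 and 0.21 (wild-type NDP-MSH), 0.04 and -0.13 (e/e PBS) and -0.04 and -0.06 (e/e NDP-MSH), an e/e difference of -0.0013 ± 0.0920 with an interval of -0.22 to 0.21.

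Among the 3 measured genes of secreted and matrix-binding proteins, all were lower in e/e mice after NDP-MSH, with a median of -0.56. Lgals3 (galectin-3), a sugar-binding protein of phagocytes, lay at 0.15 and 0.63 (wild-type PBS), 0.41 and -0.15 (wild-type NDP-MSH), -0.27 and 0.37 (e/e PBS) and -0.57 and -0.46 (e/e NDP-MSH), an e/e difference of -0.56 ± 0.26. Gpnmb, a transmembrane glycoprotein of lipid-laden macrophages, lay at 0.44 and 1.08 (wild-type PBS), 0.70 and -0.17 (wild-type NDP-MSH), -0.76 and 0.17 (e/e PBS) and -0.87 and -0.96 (e/e NDP-MSH), a difference of -0.62 ± 0.38. In both genes the e/e NDP-MSH arrays were the lowest, and e/e PBS 2 stood among the wild-type arrays. Wfdc17, a small secreted protein of activated macrophages, lay at 0.38 and 0.35 (wild-type PBS), 0.48 and 0.13 (wild-type NDP-MSH), -0.35 and -0.13 (e/e PBS) and -0.46 and -0.47 (e/e NDP-MSH), with -0.23 ± 0.12; all 4 e/e arrays lay below all 4 wild-type arrays.

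NDP-MSH against PBS in wild-type mice, which have a functional Mc1r, gave a smaller median difference over the members than in e/e mice. No common direction outlasted the loss of 1 array. Axl (-0.27 in wild-type against -0.08 in e/e mice), Apoc2, Lpl and Apoe differed more in wild-type mice. The member median was -0.11 (0.02 over all genes), with 26 genes lower and 11 higher. The limma fit called 0 of 37 members, against 39 of 22180 genes (0.176%), a number that lay between 0 and 49 when each array was left out in turn. At an unadjusted p under 0.05, 0 members were lower (5.6% of all genes were) and 0 were higher. Both NDP-MSH arrays lay below both PBS arrays in 2 members, Tlr2 and Apoc2 (18.9%), and above both in 1, Lpl (25.3%). The member median was -0.37 without wild-type PBS 1 and -0.33 without wild-type NDP-MSH 1, and it was 0.11 without wild-type PBS 2 and 0.05 without wild-type NDP-MSH 2.

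The smallest p of the wild-type comparison belonged to Lpl, at 0.20 ± 0.09 (limma, unadjusted p = 0.0687, adjusted p = 0.435), followed by Tlr2 at -0.44 ± 0.21 (adjusted p = 0.44) and Apoc2 at -0.36 ± 0.19 (adjusted p = 0.468). Of the genes described above, Cst7 was at -0.47 ± 0.36, Itgax at -0.39 ± 0.42, Clec7a at -0.31 ± 0.79, Tyrobp at -0.26 ± 0.21 and Trem2 at -0.15 ± 0.23. Fcgr1 was at 0.41 ± 0.42, Fcgr3 at 0.17 ± 0.27, Slc15a3 at 0.06 ± 0.29, Cd53 at 0.03 ± 0.36 and Nckap1l at 0.02 ± 0.20. Every one of these 95% intervals held 0, and for Clec7a it ran from -2.15 to 1.53. The Fc receptors had a median of 0.10 and the lysosomal group one of -0.40. Both NDP-MSH arrays had the low cerebellar medians given above beside these values.

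**Figure D4:**
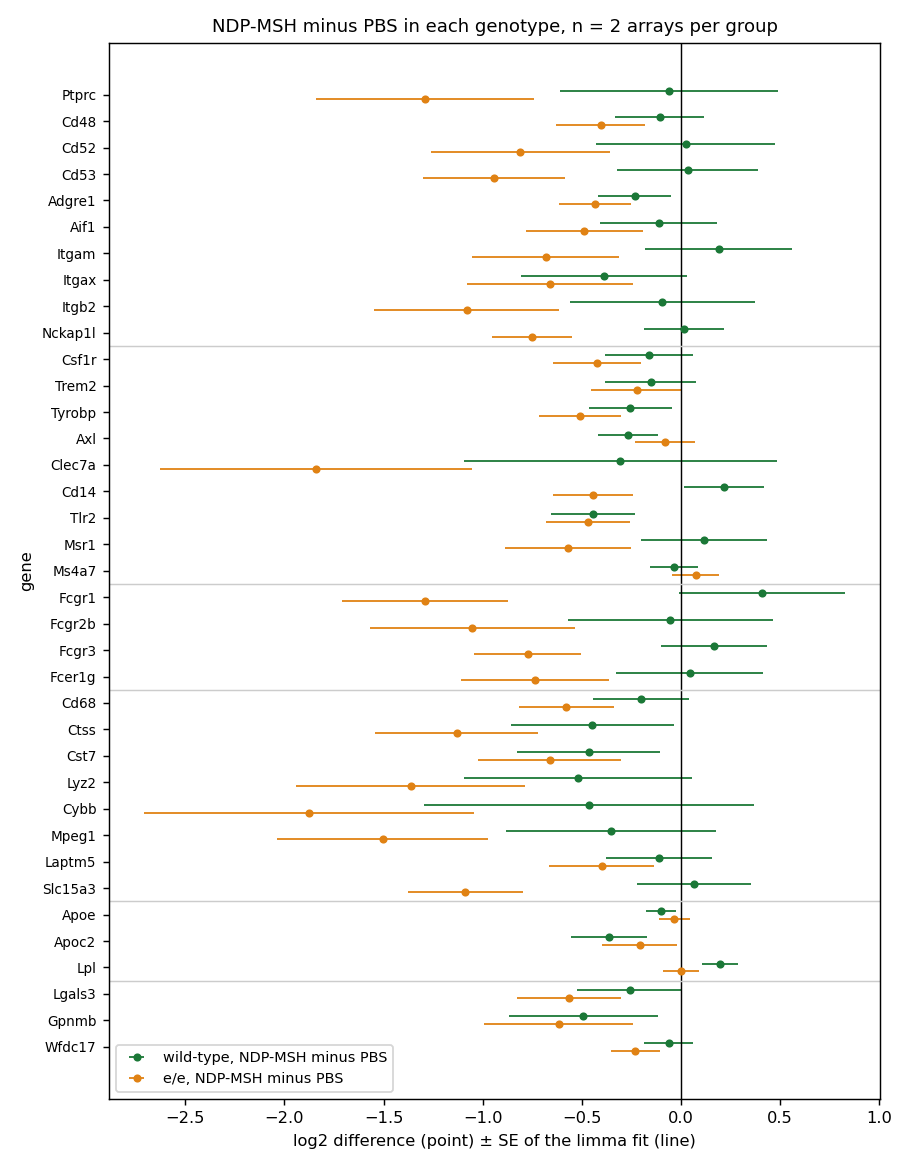
Log2 difference of NDP-MSH minus PBS (x axis; point, with the SE of the limma fit as a line) for each member (y axis) in wild-type (green) and e/e mice (orange), n = 2 arrays per group. The orange points lie left of 0 in 36 of 37 genes with a median of -0.62, and the green points lie on both sides with a median of -0.11.

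The 2 treatment effects were set against each other as the wild-type effect minus the e/e effect. The member median was 0.38, and 33 of 37 genes had a positive difference. The limma fit called 0 of 37 members and 0 of 22180 genes (0%), while 898 genes were lower and 813 higher at an unadjusted p under 0.05. At that unadjusted threshold 4 members were higher (3.67% of all genes were) and none was lower. These were Fcgr1 at 1.70 ± 0.59 (limma, unadjusted p = 0.0226, adjusted p = 0.592), Slc15a3 at 1.15 ± 0.41 (adjusted p = 0.598), Nckap1l at 0.77 ± 0.29 (adjusted p = 0.614) and Fcgr3 at 0.94 ± 0.38 (adjusted p = 0.631). Trem2 was at 0.07 ± 0.33, with an interval from -0.69 to 0.83. Without e/e PBS 1 the member median was 0.84, and without e/e PBS 2 it was 0.06.

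Under PBS alone, e/e against wild-type mice had a member median of -0.65 (0.0002 over all genes), and all 37 genes were lower in e/e mice. The limma fit called 0 members and 0 of 22180 genes (0%), with 567 genes lower and 521 higher at an unadjusted p under 0.05. At that unadjusted threshold 14 members were lower (2.56%), and in 17 both e/e PBS arrays lay below both wild-type PBS arrays (16.7%). Ms4a7 had the smallest p, at -0.65 ± 0.12 (limma, unadjusted p = 0.000847, adjusted p = 0.839), then Adgre1 at -0.92 ± 0.18 (adjusted p = 0.869), Wfdc17 at -0.60 ± 0.12 (adjusted p = 0.871), Apoc2 at -0.82 ± 0.19 and Cd68 at -0.97 ± 0.24 (both adjusted p = 0.887). In each of these 5 genes both e/e PBS arrays were below both wild-type PBS arrays, unlike Fcgr1 (-0.45 ± 0.42) or Slc15a3 (-0.08 ± 0.29). The median was -0.19 without e/e PBS 1, with 5 members at an unadjusted p under 0.05 and lower (2.78%), and -1.002 without e/e PBS 2, with 34 (4.14%).

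Averaging the genotype difference over PBS and NDP-MSH, a comparison added after the member values had been seen, uses all 8 arrays. The member median was -0.79 (-0.0041 over all genes), and all 37 genes were lower in e/e mice. The limma fit called 0 of 37 members, against 7 of 22180 genes (0.0316%). Of these 7 genes, 3 were on the cerebellar list, whose median was low only in wild-type NDP-MSH. The average thus takes in the cerebellar difference of that group, and its part in the member values was not tested. At an unadjusted p under 0.05, 35 members were lower (6.46%), all but Apoe and Lpl. All 4 e/e arrays lay below all 4 wild-type arrays in 10 members (2.57%), namely Cd48, Adgre1, Nckap1l, Csf1r, Trem2, Tyrobp, Ms4a7, Cd68, Apoc2 and Wfdc17. In Cd48, Nckap1l, Csf1r, Tyrobp and Apoc2, e/e PBS 2 read between -0.03 and -0.0067, only just below the lowest wild-type array. Wfdc17, at -0.69 ± 0.09, and Adgre1, at -1.02 ± 0.13, came nearest to the threshold (limma, both adjusted p = 0.0693), and Cybb, at -2.49 ± 0.59 (adjusted p = 0.176), and Lyz2, at -2.06 ± 0.41 (adjusted p = 0.128), differed most, with 5.60-fold and 4.17-fold higher values in wild-type mice. Apoe was at -0.07 ± 0.05 and Lpl at -0.10 ± 0.07.

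The averaged comparison also depended on the e/e PBS array that was used. Without e/e PBS 2, the array seen to be high in the members, Lyz2 was at -2.56 and Cybb at -3.20. In 35 members the 3 e/e arrays left then lay below all 4 wild-type arrays (6.48%). Without e/e PBS 1 this held in 10 members (3.91%). Either fit leaves 1 e/e PBS array and takes the split pair out of the measured spread, so its calls are not read here. The array with the highest member values in the e/e genotype, e/e PBS 2, is also the one that carried Xist and Y-linked signal together. Members were low on e/e PBS 1, where Eif2s3y read -0.02, and on both arrays of e/e NDP-MSH, where it read 2.78 and 2.87. Xist was far lower on both e/e NDP-MSH arrays than on either e/e PBS array. In the e/e comparison sex-linked signal and treatment therefore cannot be told apart, and the part of sex-linked signal in the e/e values was not tested. No wild-type array carried Y-linked signal, so on the 3 e/e arrays that did, it cannot be told apart from the genotype. e/e PBS 1, the 1 e/e array without it, lay below all 4 wild-type arrays in 35 of 37 members (18.5% of all genes). The part of Y-linked signal in the difference between the genotypes was not tested.

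Genes that act with the members were read from further lists. Of 11 measured genes that signal below TREM2, TYROBP and the Fc receptors, 9 were lower in the e/e comparison (median -0.31) and 0 passed the test in either direction in any of the comparisons. The smallest e/e p was that of Btk, a kinase below these receptors, at -0.31 ± 0.14, followed by Ptpn6, the phosphatase SHP-1, at -0.68 ± 0.35. In the wild-type comparison the same list had a median of 0.04, with Blnk, an adaptor, at 0.16 ± 0.10 and Hcst, the adaptor DAP10, at -0.12 ± 0.13. Over both treatments 10 of 11 were lower in e/e mice, with a median of -0.64.

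Of 9 measured myeloid transcription factors, 8 were lower in the e/e comparison (median -0.34) and none passed. Ikzf1 was at -0.38 ± 0.13 and Spi1, which encodes PU.1, at -0.48 ± 0.23. Spi1 lay at -0.03 and 0.18 (wild-type PBS), 0.12 and 0.03 (wild-type NDP-MSH), -0.70 and 0.12 (e/e PBS) and -0.79 and -0.76 (e/e NDP-MSH), the split of the e/e PBS pair seen in most members. In wild-type mice the list median was 0.08, with Cebpb at 0.41 ± 0.16 and Mef2c at 0.48 ± 0.26. Of 6 measured ligands of member receptors, 3 were lower and 3 higher in the e/e comparison (median -0.10, none called). Pros1, a bridging ligand of the TAM receptors, was at -0.45 ± 0.13 and Csf1, a ligand of Csf1r, at -0.41 ± 0.20 in e/e mice. Il34, the other Csf1r ligand, was at 0.59 ± 0.21 and Gas6, the ligand of Axl, at -0.10 ± 0.07 in wild-type mice.

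Further disease-associated microglia genes, 16 that are no members, had an e/e median of -0.09 with 11 lower, and a wild-type median of -0.06 with 10 lower, none called. Over both treatments 14 of 16 were lower in e/e mice (median -0.14, none called), 7 of them at an unadjusted p under 0.05 (6.46% of all genes). At that unadjusted threshold 2 genes of the list were lower in the e/e comparison (1.78%), Lilrb4a and B2m. Lilrb4a, an inhibitory receptor of myeloid cells, gave -2.72 and 1.13 (e/e PBS) and -3.19 and -3.39 (e/e NDP-MSH), a difference of -2.49 ± 1.06. B2m, the light chain of MHC class I, was at -0.69 ± 0.27. Hif1a, a factor of the response to low oxygen, was at -0.19 ± 0.10 and Ctsd, a lysosomal protease, at -0.16 ± 0.09 in wild-type mice. The median of homeostatic microglia genes over 11 measured genes was 0.0038 in e/e mice, with 5 lower and 6 higher, and 0.16 in wild-type mice, with 10 higher, none called. Olfml3 was at -0.34 ± 0.10 and Selplg at -0.33 ± 0.13 in e/e mice, and Fcrls at 0.89 ± 0.21 and Selplg at 0.43 ± 0.13 in wild-type mice. Over both treatments 10 of the 11 were lower in e/e mice (median -0.30), and in 6 all e/e arrays lay below all wild-type arrays (2.57% of all genes).

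Markers of cells that can carry member genes without being microglia were also measured. Of 9 monocyte genes all 9 were lower in the e/e comparison (median -0.37, none called), and their array medians were -0.60 and 0.22 (e/e PBS) and -0.60 and -0.34 (e/e NDP-MSH), against 0.03 to 0.38 in wild-type arrays. Chil3, a chitinase-like protein of monocytes, was at -1.82 ± 0.45 (limma, unadjusted p = 0.00438, adjusted p = 1) and Itga4 at -0.27 ± 0.09 in e/e mice, and in wild-type mice Itga4 was at 0.20 ± 0.09 and Vcan at -0.21 ± 0.16. Of 9 T cell genes 8 were lower in e/e mice (median -0.31, none called), Cd2 at -0.31 ± 0.14 and Cd3g at -0.76 ± 0.37, and all 9 were higher in wild-type mice (median 0.12, none called), Icos at 0.29 ± 0.18 and Zap70 at 0.12 ± 0.08.

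Border macrophage genes (9 measured) had an e/e median of 0.01, with 4 lower and 5 higher, and a wild-type median of 0.31, with 2 lower and 7 higher, none called. F13a1 was at -0.40 ± 0.15 and Cd163 at -0.07 ± 0.07 in e/e mice, and Lyve1 at 0.81 ± 0.12 and Cbr2 at 0.80 ± 0.13 in wild-type mice. Neutrophil genes (10) had medians of -0.13 in e/e mice, with 9 lower and 1 higher, and 0.12 in wild-type mice, with 4 lower and 6 higher. Csf3r was at -0.55 ± 0.24 and Ly6g at 0.13 ± 0.07 in e/e mice. Ly6g was at 0.39 ± 0.07 and Retnlg at 0.31 ± 0.15 in wild-type mice. B cell genes (5) were at 0.04 and -0.14, and dendritic cell genes (5) at -0.05 and -0.30, again with none called. Over both treatments, all 9 border macrophage, all 9 monocyte, all 9 T cell and all 9 transcription factor genes were lower in e/e mice, none called. Neutrophil genes were 4 lower and 6 higher, B cell genes 4 and 1, and dendritic cell genes 3 and 2. All e/e arrays lay below all wild-type arrays in 3 border macrophage genes, 2 transcription factors, 1 monocyte gene and 1 T cell gene (2.57% of all genes). The share of these cell types in the member values was not tested.

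**Figure D5:**
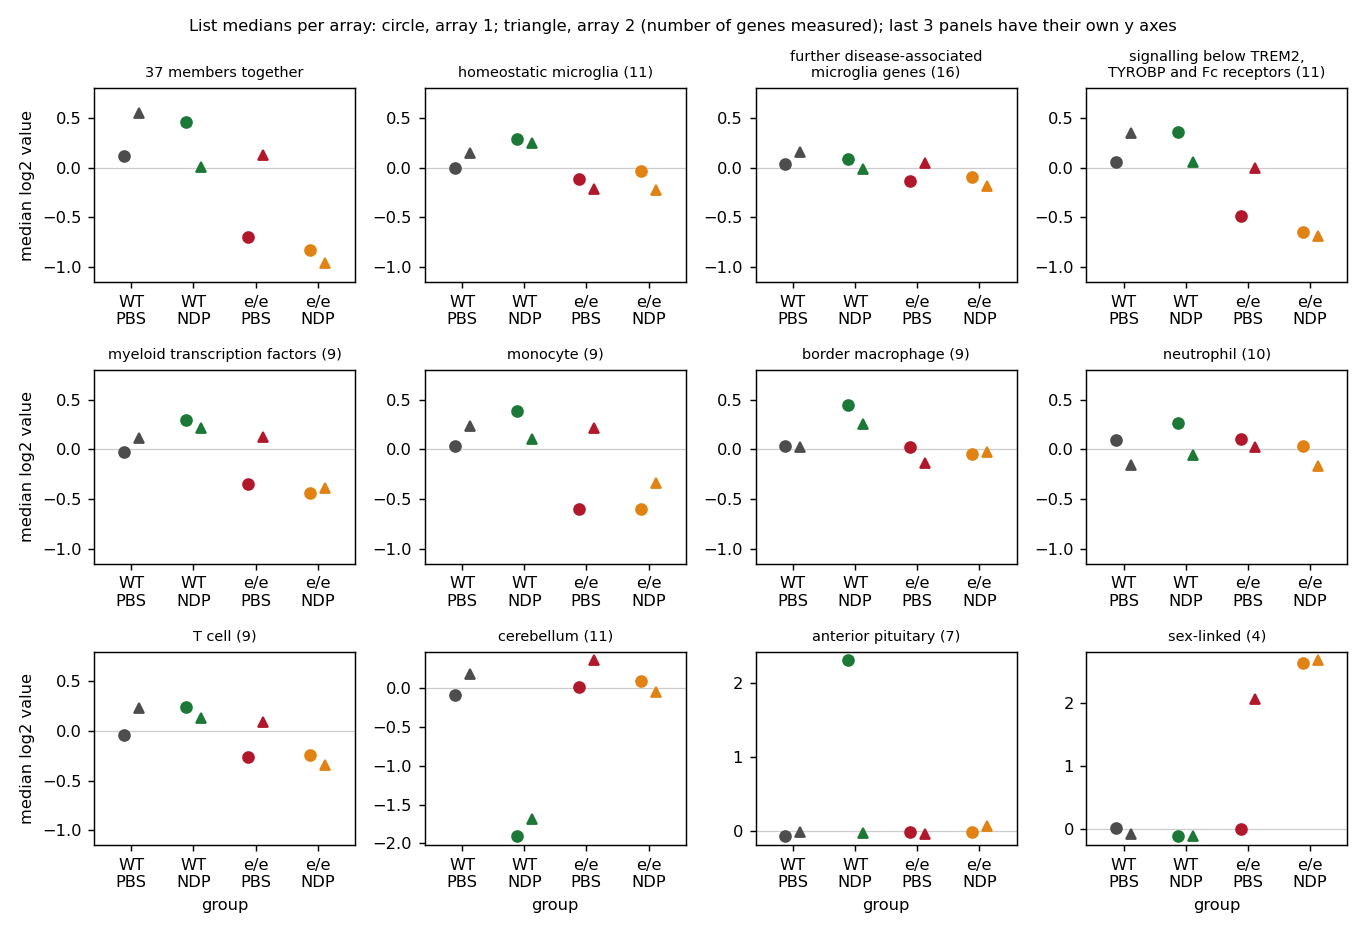
Median row-centred log2 value (y axis) of each list on each array, by group (x axis), with array 1 as a circle and array 2 as a triangle; 9 panels share 1 scale, and the cerebellum, anterior pituitary and sex-linked panels have their own. The monocyte, T cell, TREM2-signalling and transcription factor lists show the split e/e PBS pair of the members (-0.70 and 0.13), while the homeostatic microglia list (-0.12 and -0.21) does not.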

How the data were processed

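Brain RNA was hybridised to 1 Affymetrix whole-transcript array per sample, after biotin labelling with the WT Plus kit per the labels' protocols. The deposited table holds the authors' processed values of 33793 probe sets on a log scale, taken here as log2. For the log base, summarisation, normalization and filters, nothing is stated (not given in the sources used). Row medians are 0 (at most 5e-07 in size), which shows centring of each probe set, so no absolute level and no filter on dim probe sets could be used, and the number of arrays limits the precision. Column medians lay between -0.00428 and 0.0142. The signal before centring was read from the single-precision step left in the values (tolerance 0.15 of the coarser step and 0.3 of the finer one), and it rests on the log2 scale too.

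The array annotation gave 1 gene symbol for 23521 probe sets, several for 1814 (left out) and none for 8458. Probe sets of a gene were averaged, which gave 22180 genes. Each member has 1 probe set, except Lpl with 2. limma 3.58.1 in R 4.3.3 fitted all 8 arrays with 1 coefficient per group (4 residual degrees of freedom, prior 3.45), with two-sided moderated tests, adjusted by Benjamini-Hochberg across the 22180 genes with a threshold of 0.05. Errors are standard errors of that fit, and intervals are at 95%. The fit was also run on simulated arrays with independent noise and spreads shuffled over the genes. Of genes changed by 0.5 and by 1 in the wild-type comparison, 32% and 74% were called. The members vary together and more than most genes, so these shares do not apply to them. The listed genes and the further lists were chosen with earlier results of these data known, so their counts are no independent evidence of a direction. Values on every array are given for the 2 genes with the smallest e/e p and the 1 with the smallest wild-type p in each of 6 role groups, and for Trem2, Tyrobp, Apoe, Itgax, Clec7a and Cst7. Genes of the other lists are named by the smallest p in each treatment comparison, and genes chosen after their values were seen are stated as such. Promoter windows and start positions are from RefSeq, assembly GRCm38.p6. Alternatives were the replicate block, array weights, quantile normalization, array centring, the 4 arrays compared, robust moderation, 2 other treatments of probe sets and leaving out each array. The averaged genotype comparison, the limit on probe sets at a signal of 8 and the side-by-side values without each e/e PBS array were added after the data were seen. Figures were drawn with matplotlib 3.10.9.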

Additional observations from a re-analysis of the deposited data

How the results depend on the processing

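No member passed the threshold in any comparison under the replicate block, array weights, quantile normalization, array centring, robust moderation, either other treatment of probe sets, or the limit to probe sets with a signal of at least 8. The fit of only the 4 arrays compared, run for the wild-type, the e/e and the PBS comparison, called no member either. Several of these alternatives could hardly move a member result. Both arrays of a group received the same weight, so the array weights left the group differences unchanged. Array medians over all genes already lay between -0.0072 and 0.0147 before centring. Every member but Lpl has 1 probe set, and the limit to a signal of at least 8 kept only 6 members. Calls of members came only from leaving out an e/e PBS array, which leaves 1 array in that group. Its split pair then adds nothing to the measured spread, so no conclusion is drawn from these calls. Leaving out each array in turn gave 0 to 2 members in the e/e comparison, 0 to 1 in the difference of effects, 0 in e/e against wild-type under PBS and in the wild-type comparison, and 0 to 29 in the averaged genotype comparison. The member median then ranged from -1.06 to -0.22 in the e/e comparison, from -0.37 to 0.11 in the wild-type comparison, from 0.0607 to 0.84 in the difference of effects, from -1.002 to -0.19 under PBS, and from -1.03 to -0.67 in the averaged genotype comparison. Over all genes, the leave-one-out counts were 0 to 51 (e/e), 0 to 49 (wild-type), 0 to 7 (difference of effects), 0 to 4 (under PBS) and 0 to 383 (averaged genotype). The 39 wild-type calls over all genes became 14 under the replicate block, 20 after quantile normalization and 5 with only the 4 arrays compared. The difference of effects called 1 gene after quantile normalization, and 3 genes with the limit to bright probe sets. The averaged genotype comparison called 0 genes under the replicate block and 30 with that limit. The cause of these changes was not tested.

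The arrays of a number are not stated to share anything. The correlation over all genes of the difference between array 1 and array 2 was -0.0984 between the wild-type groups, 0.179 between the e/e groups, 0.443 between the PBS groups and -0.126 between the NDP-MSH groups; it was 0.128 between wild-type PBS and e/e NDP-MSH and -0.251 between wild-type NDP-MSH and e/e PBS. Not every pair was above 0.1, so the numbers were not taken to pair the samples. With 1 array of each number in every group, the replicate block cannot move a group difference (member medians -0.62 in e/e and -0.11 in wild-type mice), and with it no member was called.

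For single named members, 587 of the alternative values kept their direction and their side of the threshold, 2 passed it (Clec7a and Slc15a3, without e/e PBS 1) and 21 changed sign, none of them past the threshold. After quantile normalization the wild-type difference was -0.0080 for Cd53 and -0.0042 for Nckap1l. When each array was left out, the wild-type difference ranged from -0.25 to 0.32 for Cd53, -0.11 to 0.15 for Nckap1l, -0.0508 to 0.38 for Fcgr3, -0.0505 to 0.18 for Slc15a3, -0.84 to 0.0682 for Itgax, -0.52 to 0.22 for Trem2, -0.72 to 0.0173 for Mpeg1, -0.49 to 0.0214 for Adgre1, -0.71 to 0.10 for Clec7a, -0.54 to 0.0207 for Lgals3 and -0.23 to 0.11 for Wfdc17. The e/e difference ranged from -0.0876 to 0.0850 for Lpl and from -0.54 to 0.13 for Apoc2.

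With 2 arrays per group, a difference of the size of the spread between the e/e PBS arrays could not be told from that spread. Values below a signal of 8 are nearer to the background of such arrays, which was not measured here. The disease score of each mouse, the extraction and the scan were not used here, so no batch was tested.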
